A study of Mus musculus with 6 samples.

Results

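Podocytes are the epithelial cells that cover the capillaries of the kidney's filter, and 8 genes by which they are known were followed here: Nphs1, Podxl, Ptpro, Magi2, Plce1, Synpo, Wt1 and Cdkn1c. They were chosen by gene symbol, and each had 1 row among the 24422 genes of the count tables, so all 8 of 8 were found, and all 8 passed the filter on low counts. RNA sequencing was performed on whole kidneys of C57BL/6 mice at postnatal day 60, with 3 control libraries (genotype wild type) and 3 TfR1KO;KspCre libraries (genotype Tfr1f/f;KspCre). Every mouse had received an iron-sufficient diet of 220 ppm. In the TfR1KO;KspCre mice the gene of the transferrin receptor TfR1 carries recombination sites, and Cre recombinase is made under the promoter of Ksp-cadherin (gene Cdh16), a cadherin of tubular epithelium, so podocytes are not the cells that this Cre was chosen for. The TfR1KO;KspCre libraries are called knockout libraries here.

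Podocytes send out interlocking foot processes, and neighbouring processes are joined by the slit diaphragm, a sheet of adhesion proteins through which plasma is filtered. Scaffold and signalling proteins tie this sheet to the actin of the foot process, a coat of negatively charged sialomucin keeps the slits open, and a small set of transcription factors and cell cycle inhibitors holds the cell in its mature, non-dividing state. Loss of function of several of these genes is known to cause nephrotic syndrome.

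Library-wide facts that bear on these genes were as follows. Total counts ranged from 18036845 to 21001341 in the controls and from 11501053 to 19576330 in the knockouts, with knockout 3 the shallowest. Ribosomal Rn45s took 2.59% of the counts of knockout 3, the library in which Plce1 and Synpo were highest, and 0.506% to 0.745% in the other 5. Without knockout 3 their log2 fold changes were 1.18 and 0.93. Levels are given as normalised CPM, a gene's counts per 1e6 counts of its library after trimmed-mean (TMM) scaling. No pair of libraries within a group matched to within counting noise, the chi-square per degree of freedom being 52.9 to 125, and each library was counted as 1 sample. Tfrc, the targeted gene, read 138.5, 167.9 and 62.0 CPM in controls 1 to 3, with 214.4, 86.0 and 40.6 CPM for knockouts 1 to 3, and the groups overlapped. In whole kidney, with deletion in only some cells, this does not check the labels. On the first principal component (69.4% of the variance) the controls lay between -72.6 and -53.2 and knockouts 2 and 3 at 88.6 and 82.1, while knockout 1 lay between them at 9.67. Control 2 stood apart from the other 5 libraries in sex-linked transcripts, with 52 counts of Xist and 3980 of 4 Y-linked genes, where the others had 10458 to 23845 and 3 to 5. The labels give no sex, and values without control 2 or without knockout 1 are given beside some results below.

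Across the 8 genes, 2 rose in the knockout kidneys, 0 fell and 6 did not pass the test. The test was edgeR's quasi-likelihood test over all 15171 genes kept by the filter, with p-values adjusted by Benjamini-Hochberg and a threshold of 0.05. Over all tested genes it called 2612, or 17.2%, and it called 10.6% as higher. Of its calls 61.4% were higher, and 81.8% were when libraries were scaled by their totals alone in place of TMM. The genes that rose were Plce1 and Synpo, a signalling enzyme and an actin protein of the foot process. Of the log2 fold changes 7 were above 0, and their median over the 8 genes was 0.49, against 0.02 over all tested genes. The 8 genes together took 0.0443% to 0.0636% of a control library's counts and 0.0729% to 0.111% of a knockout library's raw counts, without overlap, and Podxl alone held 50.5% to 64.7% of that sum. On the TMM scale the sums of the 8 genes were 665, 521 and 512 CPM in controls 1 to 3, against 925, 651 and 976 CPM in knockouts 1 to 3, and they overlapped, with knockout 2 below control 1. In whole tissue, more or fewer podocytes and more or less RNA per podocyte cannot be told apart.

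**Figure D1:**
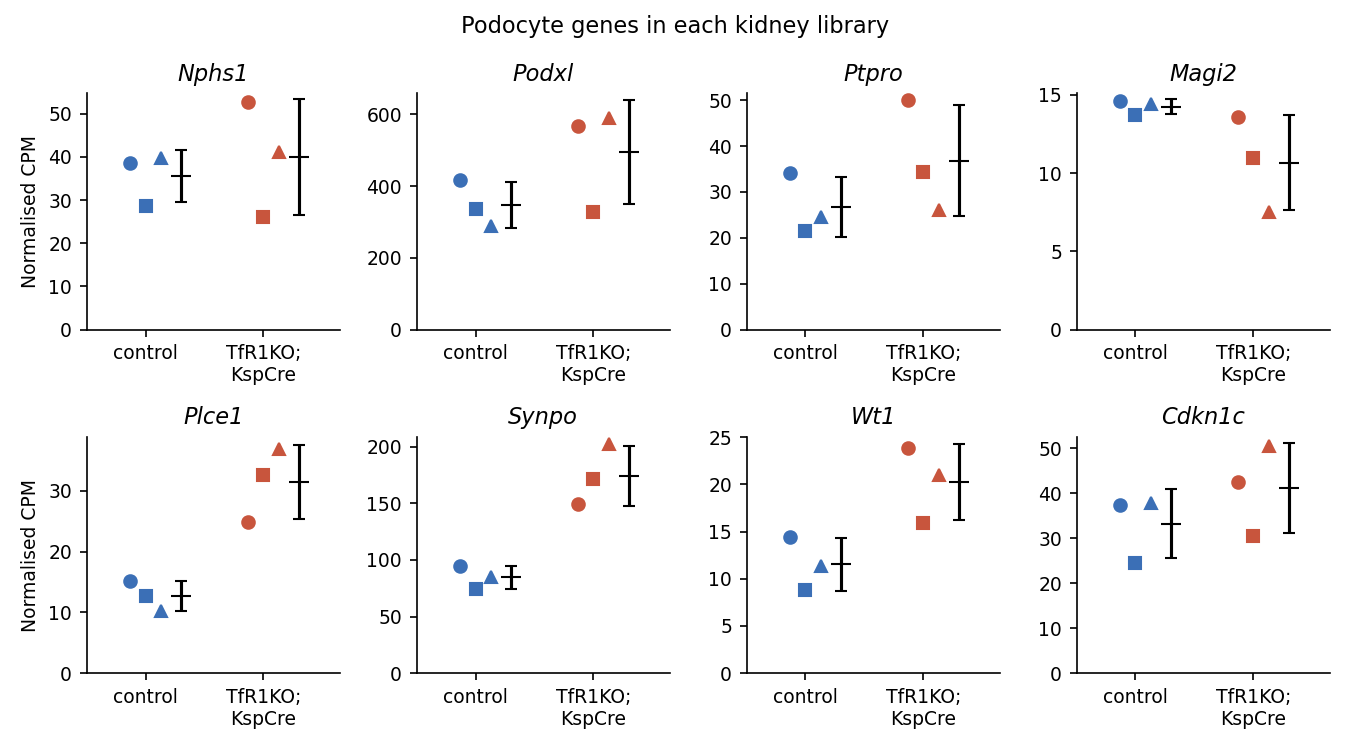
Normalised CPM of each of the 8 genes (vertical axes, each from 0) in the control (blue) and TfR1KO;KspCre (red) libraries, with replicate 1 as a circle, 2 as a square and 3 as a triangle, and the mean and SD of 3 libraries as a bar at the right of each group. The knockout libraries lie above every control for Plce1, Synpo and Wt1, below every control for Magi2, and overlap the controls for the other 4 genes.

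Nphs1, which encodes nephrin, the adhesion protein that spans the slit, is at chromosome 7, positions 31243334 to 31272242 on the plus strand of NCBIM37 (mm9), the build of the count tables. Controls 1 to 3 had 38.5, 28.7 and 39.7 CPM, and knockouts 1 to 3 had 52.7, 26.0 and 41.1 CPM. The highest library and the lowest were both knockouts, and the groups overlapped. The means were 35.6 ± 6.04 and 40.0 ± 13.4 CPM (SD, n = 3 each), and the log2 fold change was 0.17 (SE 0.27; edgeR adjusted p = 0.679). The 95% interval of the fold ran from 0.718 to 1.75, which holds changes in either direction. Without knockout 1 the log2 fold change was -0.10.

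Podxl encodes podocalyxin, the sialomucin that coats the apical face of the foot processes, and lies on the minus strand of chromosome 6 at 31469488 to 31513981. It had 416, 337 and 289 CPM in controls 1 to 3, and 568, 329 and 590 CPM in knockouts 1 to 3. Knockouts 1 and 3 were above every control and knockout 2 was among them. The log2 fold change was 0.51 (SE 0.28; edgeR adjusted p = 0.216), with a 95% interval of the fold from 0.902 to 2.26. Podocalyxin is also made by vascular endothelium, so this gene is less restricted to podocytes than nephrin is.

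Ptpro encodes a receptor tyrosine phosphatase of the apical podocyte membrane, on the plus strand of chromosome 6 at 137200820 to 137413150. Controls 1 to 3 had 34.0, 21.5 and 24.6 CPM and knockouts 1 to 3 had 50.0, 34.4 and 26.0 CPM. Every knockout was above controls 2 and 3, but knockout 3 was below control 1. The log2 fold change was 0.46 (SE 0.28; edgeR adjusted p = 0.262), and it was 0.17 without knockout 1.

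Magi2 encodes a scaffold that binds nephrin from inside the cell, and it was the one gene of the 8 with a negative log2 fold change. It spans 18732864 to 20210616 on the plus strand of chromosome 5. Controls 1 to 3 had 14.6, 13.7 and 14.4 CPM, while knockouts 1 to 3 had 13.6, 10.9 and 7.51 CPM. All 3 knockouts were below all 3 controls, knockout 1 only just so, and with library size alone in place of TMM scaling the groups overlapped. Over all tested genes, 22.2% had every knockout below every control. The log2 fold change was -0.41 (SE 0.25; edgeR adjusted p = 0.259), with a 95% interval of the fold from 0.499 to 1.13. It was -0.63 without knockout 1 and -0.22 without knockout 3. The controls were close together (14.2 ± 0.488 CPM) and the knockouts were not (10.7 ± 3.05 CPM). The lowest value rested on 98 counts in knockout 3, for which counting error alone gives a 95% Poisson interval of 6.10 to 9.15 CPM. In this annotation 3 gene identifiers carry the name Magi2, and the table has 1 value for them.

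Plce1, which encodes phospholipase C epsilon, an enzyme that releases lipid second messengers and is mutated in a recessive nephrotic syndrome, rose the most of the 8. It lies on the plus strand of chromosome 19 at 38598687 to 38859588. Controls 1 to 3 had 15.2, 12.6 and 10.2 CPM, and knockouts 1 to 3 had 24.8, 32.5 and 36.8 CPM. The lowest knockout was above the highest control, under TMM and under library size alone. The means were 12.7 ± 2.49 and 31.4 ± 6.09 CPM (SD, n = 3 each), a fold of 2.47 with a 95% interval of 1.72 to 3.56 (log2 fold change 1.31, SE 0.22; edgeR adjusted p = 0.0282). The call was lost when any 1 of the 3 controls, knockout 2 or knockout 3 was left out. Over those 5 omissions the log2 fold change stayed between 1.17 and 1.44, and the adjusted p reached 0.118, the value without control 2. In the same 5 fits, 0 to 73 of all genes were called. Without knockout 1, where 34.4% of all genes were called, Plce1 was called at 1.44 (edgeR adjusted p = 0.00503).

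Synpo, which encodes synaptopodin, an actin-associated protein of mature foot processes, rose with it. The gene lies on the minus strand of chromosome 18 at 60753627 to 60819796. Controls 1 to 3 had 94.4, 74.2 and 85.0 CPM, and knockouts 1 to 3 had 149.6, 171.7 and 202.3 CPM. The gap between the groups was wider than the range of the controls, and knockout 1 was again the lowest knockout. The fold was 2.06 with a 95% interval of 1.56 to 2.74, from means of 84.5 ± 10.1 and 174.5 ± 26.4 CPM (log2 fold change 1.05, SE 0.17; edgeR adjusted p = 0.0278). The same 5 omissions that ended the call for Plce1 ended it for Synpo, with log2 fold changes of 0.93 to 1.11. Without control 2 it was 0.95 (adjusted p = 0.118), and without knockout 1 it was 1.14 (adjusted p = 0.00464).

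Wt1 encodes the zinc finger transcription factor that keeps podocytes differentiated, on the plus strand of chromosome 2 at 104966686 to 105013773. It had 14.4, 8.76 and 11.3 CPM in controls 1 to 3 and 23.8, 15.9 and 21.0 CPM in knockouts 1 to 3. Every knockout was above every control, which was so for 23.8% of all tested genes, and of the 8 genes it was so for Plce1, Synpo and Wt1. The log2 fold change was 0.81 (SE 0.25), with an unadjusted p of 0.0150 and an adjusted p of 0.0650 in edgeR's test over all genes, so Wt1 was not called. DESeq2's Wald test, which called 32.3% of all genes, gave 0.79 with an adjusted p of 0.0215. With library size alone, under which 24% of genes were called, edgeR gave 1.06 with an adjusted p of 0.0358. Without knockout 1 Wt1 was at 0.67 with an adjusted p of 0.105, and the calls among the 8 were Plce1 and Synpo. Wt1os, transcribed antisense to Wt1, had 24, 11 and 21 counts in the controls and 34, 22 and 33 in the knockouts (log2 fold change 0.75; edgeR adjusted p = 0.254). The strand setting of the counting was not given in the sources used here, so reads of the overlap cannot be told apart. The same holds for Nphs1 and its antisense transcript Nphs1as, and for Ptpro and Gm11078.

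Cdkn1c encodes a cyclin-dependent kinase inhibitor of resting podocytes and is imprinted, on the minus strand of chromosome 7 at 150644255 to 150646955. Controls 1 to 3 had 37.4, 24.4 and 37.8 CPM, and knockouts 1 to 3 had 42.5, 30.6 and 50.4 CPM. Knockout 2 lay below controls 1 and 3 and the other knockouts above them. The log2 fold change was 0.31 (SE 0.25; edgeR adjusted p = 0.388). It was 0.12 without control 2, 0.14 without knockout 3 and 0.48 without knockout 2.

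**Figure D2:**
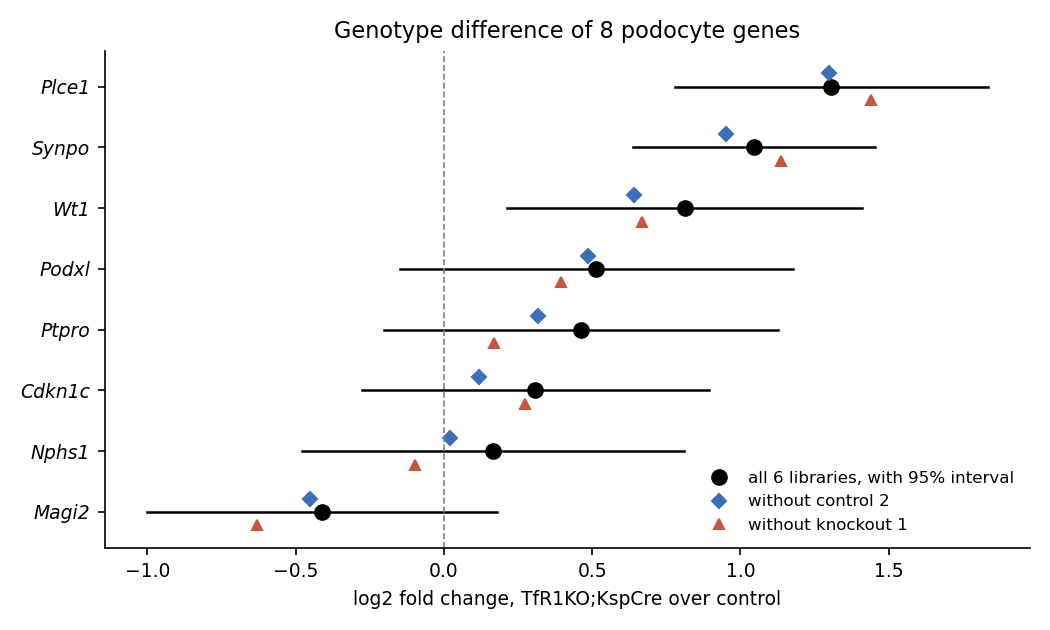
Log2 fold change (horizontal axis, TfR1KO;KspCre over control) of each of the 8 genes, with all 6 libraries (black, bar for the 95% interval), without control 2 (blue) and without knockout 1 (red). The intervals of Plce1, Synpo and Wt1 lie above 0, the other 5 cross it, and Nphs1 moves from 0.17 to -0.10 without knockout 1.

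Per kilobase of transcript, Podxl was the highest of the 8 in the controls, at 64.6 ± 11.9 CPM per kb (mean ± SD, n = 3), followed by Cdkn1c at 17.2 ± 3.95 and Synpo at 16.4 ± 1.97, which lay within their spread of each other. Nphs1 came next at 7.73 ± 1.31 CPM per kb. Ptpro (4.04 ± 0.985 CPM per kb) and Wt1 (3.72 ± 0.918 CPM per kb) did not differ beyond their spread, and Magi2 (2.18 ± 0.0747 CPM per kb) and Plce1 (1.33 ± 0.261 CPM per kb) were lowest. In the knockouts the order changed at 3 places: Synpo (33.8 ± 5.13 CPM per kb) stood above Cdkn1c (21.3 ± 5.17), Wt1 (6.54 ± 1.29) above Ptpro (5.56 ± 1.83), the latter pair within their spread, and Plce1 (3.30 ± 0.640) above Magi2 (1.63 ± 0.467).

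The Plce1 and Magi2 swap was seen in every library. Chosen after the values were seen and given with no test, the ratio of Plce1 to Magi2 per kilobase was 0.713, 0.634 and 0.487 in the controls, against 1.26, 2.04 and 3.37 in the knockouts. The ratio of Synpo to Cdkn1c counts was 2.53, 3.04 and 2.25 in the controls and 3.52, 5.62 and 4.01 in the knockouts. The ratio of Plce1 to Synpo counts, the genes that rose, stood at 0.161, 0.170 and 0.12 in the controls and at 0.166, 0.189 and 0.182 in the knockouts, and these ranges overlapped.

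A ratio taken within a library does not depend on how libraries are scaled to each other, and each gene was therefore also set against Nphs1. The counts of Plce1 per count of Nphs1 were 0.394, 0.441 and 0.258 in the controls, against 0.471, 1.25 and 0.896 in the knockouts, a log2 difference of 1.18. The ratio of Synpo to Nphs1 was 2.45, 2.58 and 2.14 in the controls and 2.84, 6.59 and 4.91 in the knockouts (log2 difference 0.92). The ratio of Wt1 to Nphs1 was 0.375, 0.306 and 0.286 in the controls and 0.452, 0.611 and 0.511 in the knockouts (log2 difference 0.70). For these 3 genes all knockouts lay above all controls, knockout 1 closest to them. On the normalised CPM scale this was so for 23.8% of all tested genes, and the share on the ratio scale was not computed. With 3 libraries against 3 the smallest two-sided p of an exact permutation test is 0.1, and that was the p of each (0.233 adjusted over the 7 ratios), so this design could not reach 0.05. The ratios of Podxl (0.36), Ptpro (0.32), Cdkn1c (0.19) and Magi2 (-0.58) to Nphs1, as log2 differences, overlapped between the groups, with exact permutation p of 0.3, 0.4, 0.4 and 0.3.

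**Figure D3:**
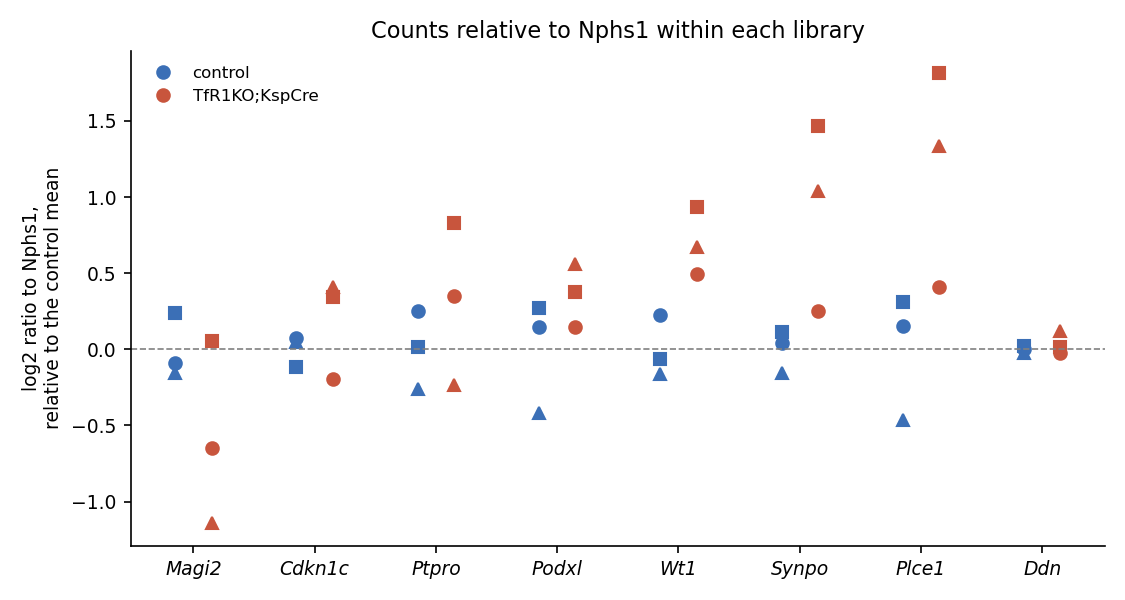
Log2 ratio of each gene's counts to those of Nphs1 in each library (vertical axis, relative to the control mean), for controls (blue) and TfR1KO;KspCre (red), with replicate 1 as a circle, 2 as a square and 3 as a triangle. Wt1, Synpo and Plce1 have all knockouts above all controls, and Ddn, the gene picked as most like Nphs1 over these libraries, is near 0 by that choice. The share of all genes with every knockout above every control on this scale was not computed.

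Among the libraries of a group the genes shared some of their order. Control 2 was the lowest control for 6 of the 8 genes (all but Podxl and Plce1), and knockout 2 was the highest knockout for 0 of 8, with 4 highest in knockout 1 and 4 in knockout 3. Knockout 1 was highest for Nphs1, Ptpro, Magi2 and Wt1, and knockout 3 for Podxl, Plce1, Synpo and Cdkn1c. As a description over 6 libraries, in which genotype and library contribute together, Pearson's r of log2 CPM was 0.97 between Plce1 and Synpo and 0.04 between Nphs1 and Plce1. Magi2 had an r of -0.80 with each of Plce1 and Synpo. Of 11330 genes whose log2 CPM averaged 3 or more, Ddn, which encodes the slit diaphragm protein dendrin, was the one most like Nphs1 (r = 0.99), followed by Ccar2, Rnf40, Ap1m2 and Ldoc1l (r = 0.97 to 0.99). The mean of the 8 genes was most like Gadd45a (r = 0.99), Taf1a, Lrfn3, Jak3 and Arl15 (r = 0.97 to 0.98).

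The promoters are shown because Wt1 is a DNA-binding factor measured here beside the other genes. Plce1 rose while Nphs1, Ptpro and Magi2 did not pass the test, and the difference between them was not tested. RefSeq promoter windows (GRCm38.p6, another build than that of the counts) were matched for 4 of the 8 genes, and Podxl, Synpo, Wt1 and Cdkn1c had no entry. The 250 bases before the start of each gene are printed 5′ to 3′ on the plus strand, at chr7:30459808-30460057 for Nphs1, chr6:137252049-137252298 for Ptpro, chr5:19226796-19227045 for Magi2 (the first of 2 starts) and chr19:38523947-38524196 for Plce1. Capitals mark matches, on either strand, to GTGGGAG or GCGTGGG, short words in the GC-rich class that WT1 and EGR1 zinc fingers bind.
Nphs1: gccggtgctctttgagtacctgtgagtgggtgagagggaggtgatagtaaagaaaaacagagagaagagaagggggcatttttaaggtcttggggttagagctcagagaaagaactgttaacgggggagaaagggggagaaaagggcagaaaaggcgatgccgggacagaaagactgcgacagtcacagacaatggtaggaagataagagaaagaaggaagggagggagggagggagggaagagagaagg
Ptpro: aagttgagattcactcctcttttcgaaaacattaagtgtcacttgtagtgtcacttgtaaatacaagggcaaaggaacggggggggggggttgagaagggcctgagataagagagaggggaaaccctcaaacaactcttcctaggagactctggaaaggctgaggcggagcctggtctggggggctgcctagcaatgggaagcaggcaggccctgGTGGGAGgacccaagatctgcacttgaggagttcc
Magi2: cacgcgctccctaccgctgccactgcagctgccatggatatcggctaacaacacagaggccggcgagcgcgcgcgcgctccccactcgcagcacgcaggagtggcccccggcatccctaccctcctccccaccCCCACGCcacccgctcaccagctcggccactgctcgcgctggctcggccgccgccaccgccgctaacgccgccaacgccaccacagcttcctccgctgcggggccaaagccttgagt
Plce1: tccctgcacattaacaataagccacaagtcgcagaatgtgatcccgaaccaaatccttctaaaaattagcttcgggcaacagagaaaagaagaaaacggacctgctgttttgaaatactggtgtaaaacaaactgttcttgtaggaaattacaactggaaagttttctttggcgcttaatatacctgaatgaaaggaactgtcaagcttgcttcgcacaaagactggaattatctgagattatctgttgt
Ptpro held GTGGGAG in the forward direction, beginning 35 bases before the start of the gene, and Magi2 held GCGTGGG in the reverse direction at 117 bases. Nphs1 and Plce1 held neither word, and nor did the window of the second Magi2 start. Of 32851 windows of this length, 11.8% held either word, 8.25% GTGGGAG and 4.3% GCGTGGG. GC content was 72.0% for Magi2, 53.6% for Ptpro, 50.8% for Nphs1 and 38.8% for Plce1, against a median of 52.4% over all windows. A match describes letters only.

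Other genes of the podocyte, 53 in number and sorted by role, were measured beside the 8, and 52 of them were tested (Kirrel2 was too low). In edgeR's test, which called 17.2% of all genes and 10.6% as higher, 13 rose and 0 fell. DESeq2, which called 32.3% of all genes, called 19 higher and 4 lower. Of the 52, 39 had a log2 fold change above 0, and the median was 0.53. Over all 15171 tested genes 7810 were above 0, with a median of 0.02. Leaving out any 1 control, knockout 2 or knockout 3 left 0 of the 52 called. Without knockout 1, where 34.4% of all genes were called, 27 were, 21 higher and 6 lower. Among 11 slit diaphragm genes and their partners 4 rose: Kirrel (log2 fold change 1.61) and Kirrel3 (1.75), which encode nephrin-like adhesion proteins, Fyn (0.72), the kinase that phosphorylates nephrin, and Trpc6 (2.13), a calcium channel. Trpc6 had 0.647 to 1.02 CPM in the controls and 1.72 to 5.44 CPM in the knockouts. Cd2ap, the adaptor that holds nephrin to actin and the most abundant of this role, was at 0.54 (edgeR adjusted p = 0.0579), and it was called without knockout 1, at 0.63 (adjusted p = 0.0150).

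Ddn, the gene most like Nphs1, stood at 0.20 on the log2 scale (edgeR adjusted p = 0.623), beside 0.17 for Nphs1, and neither was called. Without knockout 1 they were at -0.015 and -0.10. Ddn was picked for its likeness to Nphs1 over these same libraries, so the closeness of these values follows from that choice.

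Of 13 genes of the actin cytoskeleton and foot process, the role of Synpo, 3 rose: Inf2, a formin (log2 fold change 1.91), Anln, an actin-bundling protein of dividing cells (2.11), and Nes, an intermediate filament protein (1.03). Myh9, the most abundant over the 6 libraries, was at 0.77 (edgeR adjusted p = 0.0805; 0.0479 without knockout 1). In the controls Ezr was more abundant (473.9 against 392.6 CPM), and it was at -0.08. The role's median was 0.37. Of 6 transcription factors, the role of Wt1, 0 were called by edgeR over all libraries, with 2 at an unadjusted p under 0.05. Foxd1, named after its values were seen, was called without knockout 1, at 1.47 (edgeR adjusted p = 0.0414). Tcf21, the most abundant over the 6 libraries but not in the controls, where Dach1 and Foxc1 were above it, was at 16.3 CPM in knockout 3 and 96.4 CPM in knockout 2 (log2 fold change 1.35; edgeR adjusted p = 0.148).

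Of 11 genes of the basement membrane and its receptors 3 rose: Lama5 (log2 fold change 0.92), Agrn (0.84) and the integrin Itga3 (0.73). Itgb1, the integrin beta subunit and the most abundant, was at 0.64 (edgeR adjusted p = 0.121; 0.0382 without knockout 1). Col4a3 and Col4a4, the collagen chains of the mature glomerular membrane, named after their values were seen, were lower in every knockout than in every control, as were 22.2% of all genes, at -0.97 and -0.91 (edgeR adjusted p = 0.0643 and 0.0845). DESeq2 called both (adjusted p = 0.00929 and 0.0237), and so did edgeR without knockout 1, at -1.39 and -1.33 (adjusted p = 0.00325 and 0.00521). Of 11 secreted factors and other receptors 3 rose: Thsd7a (1.25), a membrane protein of the foot process, Tyro3 (1.55), a receptor kinase, and Sulf1 (2.61), a sulfatase of heparan sulfate. Vegfa, a growth factor for the capillaries and the most abundant, was at -0.62 (edgeR adjusted p = 0.282), and without knockout 1 it was called lower, at -1.24 (adjusted p = 0.00575).

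**Figure D4:**
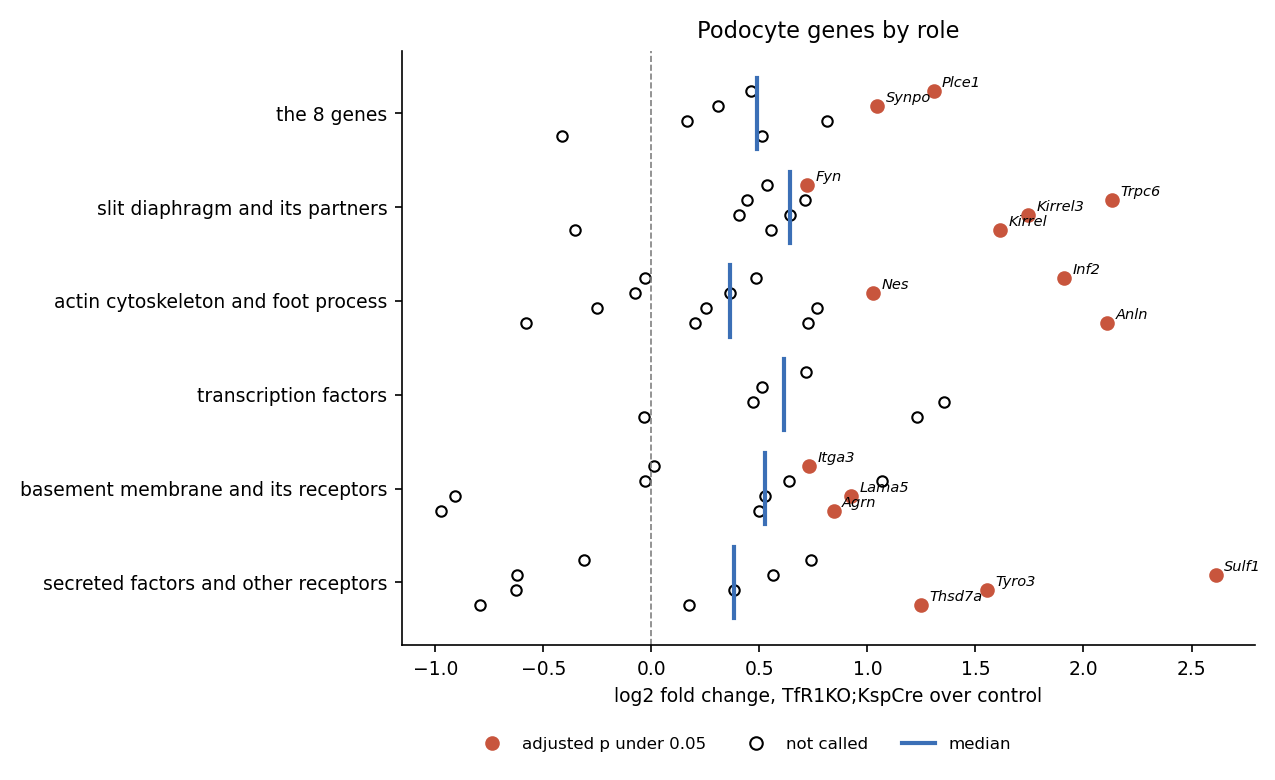
Log2 fold change (horizontal axis, TfR1KO;KspCre over control) of the 8 genes and of 52 other podocyte genes by role, red where the adjusted p was under 0.05 and open where not, with the median of each role as a blue line; vertical spacing within a role only separates the points. Medians lie between 0.37 and 0.64, and edgeR called no gene lower.

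Kin of the 8 genes were measured next, and 4 kin genes were called, where 17.2% of all tested genes were. The 4 were 1 of 2 sialomucins, 1 of 2 cell cycle inhibitors and 2 of 11 phospholipase C genes. Of the others, 0 of 3 tested receptor phosphatases, 0 of 2 synaptopodin kin and 0 of 2 MAGI scaffolds were called. Leaving out any 1 control or knockout 3 left 0 of the kin genes called. Of the sialomucins related to Podxl, Cd34, found on endothelium and progenitor cells, rose from 80.3, 51.2 and 47.1 CPM in the controls to 122.2, 131.1 and 126.0 CPM in the knockouts (log2 fold change 1.09; edgeR adjusted p = 0.0313), and Podxl2 was at 1.60 (adjusted p = 0.0848). Of 3 tested receptor phosphatases related to Ptpro, edgeR called 0 (Ptprb 0.66, Ptprj 0.45, Ptprh 0.97), and DESeq2 called Ptprj higher (adjusted p = 0.00487). The MAGI scaffolds other than Magi2 were near 0, with Magi1 at 0.01 and Magi3 at -0.14, where Magi2 was at -0.41. The difference between them was not tested.

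Of 11 other phospholipase C genes 2 rose with Plce1, Plcb2 (log2 fold change 1.67) and Plcg2 (1.08), both known from blood cells, and 10 of the 11 were above 0. Without knockout 1, where 34.4% of all genes were called, edgeR called 8 of the 11 as higher. DESeq2, which called 32.3% of all genes, called 6. Synpo2 and Synpo2l, kin of Synpo, were at 1.75 and -0.52, with neither called (Synpo2 was called without knockout 1, at 2.18, edgeR adjusted p = 0.00822, and by DESeq2). The kin of Cdkn1c parted most: Cdkn1a, a cell cycle inhibitor of stressed cells, rose from 19.2, 8.17 and 11.8 CPM in the controls to 155.3, 87.3 and 99.6 CPM in the knockouts (log2 fold change 3.12, SE 0.38; edgeR adjusted p = 0.0271). Cdkn1b was at -0.01. Of 8 tested genes of the imprinted cluster around Cdkn1c, edgeR called 0, among them Kcnq1 (0.47), Kcnq1ot1 (-0.24), Phlda2 (-1.33; edgeR adjusted p = 0.0528) and Slc22a18 (-1.70; adjusted p = 0.0724). DESeq2 called Phlda2 and Slc22a18 lower (adjusted p = 0.00543 and 0.00670). Without knockout 1 edgeR did so too, at -1.64 and -2.67 (adjusted p = 0.0220 and 0.00228). Igf2, in the same cluster, had 221.3 CPM in control 3 and 2.64 to 3.98 CPM in the other controls.

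Several of the podocyte genes are also made by other cells, and markers of those cells moved with genotype. The 12 leukocyte markers, of which 9 rose and 0 fell, summed to 191 to 216 CPM in the controls and to 585, 2072 and 802 CPM in knockouts 1 to 3, with Ptprc, the defining one, at 12.2 to 14.3 and at 36.6, 125.9 and 42.5 CPM. The 10 fibroblast and myofibroblast markers (4 rose, 0 fell) summed to 336 to 651 CPM in the controls and to 993, 4051 and 4076 CPM in knockouts 1 to 3. Without knockout 1, where 34.4% of all genes were called, 9 of the 10 were called higher. DESeq2, which called 32.3% of all genes, called 8 higher. None of these markers was at 0 in all libraries. Among the knockouts Synpo and Plce1 were lowest in knockout 1 and highest in knockout 3, while Nphs1, Ptpro, Magi2 and Wt1 were highest in knockout 1. A link between these genes and the markers was not tested.

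The 7 markers of parietal epithelium, the layer that faces the podocytes, are in part also made by tubules and collecting duct. In whole kidney they summed to 350 to 396 CPM in the controls and to 633, 844 and 923 CPM in knockouts 1 to 3, with 4 rising and Cldn1, the defining one, among them (log2 fold change 1.26; edgeR adjusted p = 0.0302). Of 8 mesangial markers 7 were tested and 3 rose, with sums of 247 to 301 CPM in the controls and 364, 624 and 611 CPM in the knockouts, and Ren1 was listed at 0 in every library. The 12 glomerular endothelial markers (1 rose, 0 fell) summed to 774 to 1448 CPM in the controls and 1233 to 1634 CPM in the knockouts. Their log2 fold changes ran from -0.26 to 1.11, with 8 above 0 and 4 below, and Emcn was at 0.14.

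Proximal tubule markers went the other way. Of 12 proximal tubule markers 8 fell and 0 rose, with sums of 19219 to 48562 CPM in the controls and 2768 to 8788 CPM in the knockouts. The highest control sum was that of control 2, the library apart in sex-linked transcripts. Kap, named after its values were seen, held 31293 CPM of it, against 6180 and 11964 CPM in controls 1 and 3. The 8 markers of the thick ascending limb summed to 5742 to 12300 CPM in the controls and 978 to 7284 CPM in the knockouts. Of these edgeR called 0, and DESeq2, which called 32.3% of all genes, called 2 lower. Without knockout 1, where 34.4% of all genes were called, edgeR called 7 of them lower. The part of these other cells in the podocyte genes' values was not tested.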

How the data were processed

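Poly-A RNA of 6 whole kidneys was sequenced as single-end reads of 100 bases. According to the study's methods and the submitters' processing notes, the authors called bases with CASAVA 1.8.2, trimmed reads with Trimmomatic, aligned them to mm9 with TopHat2 2.0.11, and used HTSeq to count the reads that mapped uniquely. The tables the authors deposited hold these counts, not normalised. The gene annotation and the strand setting were not given in the sources used here.

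Groups and replicate numbers came from the sample titles. The series' design text calls the libraries biological replicates. Counts were analysed in R 4.3.3 with edgeR 4.0.16 (filterByExpr, TMM, glmQLFit and glmQLFTest over all 6 libraries, no covariate, Benjamini-Hochberg over 15171 genes, threshold 0.05). filterByExpr used a minimum count of 10 and a minimum total of 15. Log2 values per library used a prior count of 2, and ratios of counts a prior count of 0.5 with an exact two-sided permutation test. Transcript lengths and positions came from GENCODE M1 on NCBIM37, which held 20791 of the 24422 gene names, among them all 8 podocyte genes. CPM per kb divides by the longest protein-coding transcript. Confidence intervals are 95%. The reads carry no molecular identifiers, so Poisson intervals cover counting error only.

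The 8 genes and all lists were chosen with earlier results of these data known. Some podocyte genes are not reported here. Named genes are the 8, the called genes and the most abundant gene of each podocyte role, kin and imprinted neighbours, the 5 genes most like Nphs1 and like the mean of the 8, and defining cell markers. Others are marked as chosen after their values were seen. Alternatives were other scalings (DESeq2 1.42.0 size factors, upper quartile, library size alone), other filters (none, or a minimum of 10 counts per library), the Wald test of DESeq2, limma-voom (limma 3.58.1), the newer quasi-likelihood version, each library left out, a replicate block, a covariate made of Xist over Y-linked counts (log2), and a loess correction for transcript length and GC content, which were had for 88.7% of tested genes.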

Additional observations from a re-analysis of the deposited data

How the results depend on the processing

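Plce1 and Synpo were above 0 in all 17 alternatives, with log2 fold changes of 1.14 to 1.58 and 0.78 to 1.32, and each was under an adjusted p of 0.05 in 9 of the 16 that had a test of their own (Plce1 2.63e-05 to 0.118, Synpo 8.07e-06 to 0.118). Wt1 lay between 0.64 and 1.06 and was called in 2 of 16, and Magi2 was below 0 in all 17 and called in 0 of 16. The length and GC correction moved only the fold changes. Nphs1 changed sign without knockout 1 (-0.10), after the length and GC correction (-0.022) and, in a fit chosen after seeing the data, without control 2 and knockout 1 together (-0.23), and ranged from -0.10 to 0.40 with 1 library left out. The cause was not tested.

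Leaving out 1 library in turn gave 0 to 2 calls among the 8 genes, 0 to 27 in the podocyte list (13 with all libraries), 0 to 13 among kin and imprinted genes (4 with all libraries) and 0 to 5332 over all genes (2612 with all libraries). The zeros came without any 1 control, for the 8 genes and the podocyte list also without knockout 2 or 3, and for kin and imprinted genes also without knockout 3. In these fits 3 or 4 of the 8 were at an unadjusted p under 0.05, as were 4270 to 4823 of all genes. With the replicate block, and again with the Xist covariate, edgeR called 0 genes in each of these 4 sets, with 5432 and 4221 of all genes at an unadjusted p under 0.05. For Plce1 and Synpo edgeR gave adjusted p of 0.0740 and 0.0713 with the replicate block, and 0.111 for each with the Xist covariate. Same-numbered libraries had correlations of -0.13, 0.01 and 0.21 in their deviations from the group means, so the numbers were not taken to pair them.

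DESeq2's Wald test called 23 podocyte genes (19 higher, 4 lower), 13 kin and imprinted genes and 4882 of all genes. Library size alone gave 22 podocyte genes, 9 kin and imprinted genes and 3647 of all genes. limma-voom called 8 podocyte genes and 2030 of all genes. Library size alone moved the all-gene median of the log2 fold change from 0.02 to 0.29, that of the 8 genes from 0.49 to 0.74, and the share of calls that were higher from 61.4% to 81.8%. Without control 2 and knockout 1 together the median of the 8 genes was 0.23, and with 1 library left out it was 0.33 to 0.65. The ratios to Nphs1 kept their direction with another prior count and with each library left out, but moved as log2 differences to 0.059 for Ptpro without knockout 2, 0.15 for Podxl without control 3 and 0.075 for Cdkn1c without knockout 3. Pairing by number leaves their mean difference as it is by construction. Knockout 3 was the shallowest library, with 11501053 counts.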
